A study of Mus musculus with 12 samples.

Results

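The genes described here encode the subunits of the oxidative phosphorylation system of mouse 10T1/2 cells, a mesenchymal progenitor line. They were chosen by name among the protein-coding genes of the count table: symbols beginning mt-Nd, mt-Co, mt-Cytb or mt-Atp, the Nduf genes of the a, b, c, s and v series, Sdha to Sdhd, and symbols beginning Uqcr, Cox4 to Cox8 or Atp5. This rule found 101 of the 56748 genes in the table, 13 of them encoded by the mitochondrial genome and 88 by nuclear chromosomes. The Atp5o symbol stands on 2 gene identifiers, and Cox5b-ps, which is annotated as protein coding, is counted as a nuclear member. The rule uses gene names and no expression value.

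Poly(A) RNA was sequenced from 3 groups of 4 libraries each. All cells were wild-type 10T1/2 cells held in suspension in low serum for 1 h (0.5% by the labels, serum-free by the study's methods, which give 0.5% for the gels) and then kept for 18 h on 12 kPa gels that carried type I collagen at 0.05 mg/ml. The col1 group had collagen alone, the col1-ACLP group had collagen with 30 nM recombinant aortic carboxypeptidase-like protein (ACLP), an extracellular matrix protein that binds collagen, and the col1-ACLP+SB group had the same coating with SB431542, an inhibitor of the TGFβ type I receptor ALK5. SB431542 on collagen without ACLP was not analysed here, so the effect of the inhibitor alone cannot be told apart from its effect on cells on ACLP. All 12 libraries came from 1 cell line.

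Oxidative phosphorylation passes electrons from NADH and succinate to oxygen through complexes I to IV of the inner mitochondrial membrane, and complex V uses the proton gradient they build to make ATP. Complexes I, III, IV and V hold subunits from both genomes, while complex II is wholly nuclear. The mitochondrial subunits form catalytic or proton-translocating cores, are transcribed from a circular genome as long precursors that are cut into single mRNAs, and reach the same complexes as subunits that are made in the cytosol and imported.

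The table held 29246154 to 52201922 counts per library, and 95 members passed the filter on low counts, which left 16465 genes in all. These were the 13 mitochondrial members and 82 nuclear ones. The 6 members not tested were Cox6b2, Cox8b, Cox8c, Cox7b2, Ndufb11b and 1 of the 2 Atp5o identifiers, all at or near 0. One library, col1 replicate 2, stood apart from the other 11 on the first principal component of log2 values, at -86.7 against -11.1 to 20.6. It also had the fewest genes with a count, 18556 against 20037 to 21332 in the other 11. The summed level of 9 mesenchymal markers, in CPM (counts scaled to a common library size with TMM factors), was 33975 to 35174 in col1, 43858 to 52781 in col1-ACLP and 40514 to 46062 in col1-ACLP+SB, so that both groups with ACLP lay above col1. Of these markers 2 rose and 4 fell in col1-ACLP against col1, and their part in the results on the subunits was not tested. The summed level of 5 epithelial markers was at most 5.04 CPM, of 4 endothelial markers at most 9.85, of 4 immune markers at most 10.0, of 4 adipocyte markers at most 0.269 and of 5 muscle markers at most 2.49, and Epcam, Adgre1, Cd3e, Myod1 and Myog were at 0 throughout.

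Nuclear copies of mitochondrial DNA bear on the mitochondrial members and are described before their values. A stretch of chromosome 1 in the mouse genome (GRCm39, chr1:24650616-24655269, minus strand) repeats positions 6390 to 11042 of the mitochondrial genome over 4654 aligned bases at 99.9% identity, with 2 mismatches and 1 extra base. The 6 neighbouring members mt-Co2, mt-Atp8, mt-Atp6, mt-Co3, mt-Nd3 and mt-Nd4l lie wholly inside this stretch. For mt-Nd4 63.6% of the gene lies inside and for mt-Co1 31.3%, while mt-Nd1, mt-Nd2, mt-Nd5, mt-Nd6 and mt-Cytb lie outside. The extra base lies between mt-Nd3 and mt-Nd4l, and each mismatch lies within a member. The mismatches are shown because, within members, they are the only letters by which reads of the copy could be told from reads of these genes. Each window is printed in the direction of the mitochondrial plus strand, with the differing base in capitals.

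mt-Co1, mitochondrial genome, chrM:6390-6423: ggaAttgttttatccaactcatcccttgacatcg
chromosome 1 copy, chr1:24655236-24655269, minus strand: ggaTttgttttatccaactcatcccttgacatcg
mt-Nd3, mitochondrial genome, chrM:9431-9491: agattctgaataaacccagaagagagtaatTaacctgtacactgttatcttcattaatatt
chromosome 1 copy, chr1:24652168-24652228, minus strand: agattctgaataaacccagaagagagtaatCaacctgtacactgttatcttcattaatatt

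Over mt-Co2, mt-Atp8, mt-Atp6, mt-Co3 and mt-Nd4l the copy and the mitochondrial genome had the same letters at every base. The part of mt-Co1 outside this stretch has a less similar copy on chromosome 2, which covers all 1545 bases of the gene at 97.6% identity. The first 90 bases of mt-Co1 are shown against it, with the differing bases in capitals, because they show how much more often the letters of this second copy differ.

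mt-Co1, mitochondrial genome, chrM:5328-5417: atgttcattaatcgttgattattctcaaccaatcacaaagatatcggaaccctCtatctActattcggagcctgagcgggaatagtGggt
chromosome 2 copy, chr2:22479570-22479659, minus strand: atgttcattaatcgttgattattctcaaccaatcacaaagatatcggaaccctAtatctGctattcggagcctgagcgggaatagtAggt

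The chromosome 2 copy also covers 511 bases of mt-Nd2 at 96.7% identity, and a copy on chromosome 4 covers mt-Nd6 and mt-Cytb wholly and mt-Nd5 in part, at 92.5% to 93.6% identity. A copy on chromosome 13 repeats positions 12446 to 13400, within mt-Nd5, over 955 aligned bases at 95.2% identity. How reads that match more than 1 place were counted is not given in the sources used here.

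The levels of the mitochondrial members followed their place relative to the chromosome 1 stretch. Per kilobase of gene length and averaged over the 12 libraries, the 7 members not wholly inside it ran from 769 CPM per kb for mt-Nd6 to 6568 CPM per kb for mt-Co1, the catalytic core subunit of cytochrome c oxidase. The 6 members wholly inside it ran from 2.25 CPM per kb for mt-Atp8 to 109 CPM per kb for mt-Co2, which carries the copper centre that takes electrons from cytochrome c. The ranges did not overlap. Together the 6 members held 0.796% of the counts of all mitochondrial members and the other 7 held 99.2%. mt-Co1 alone held 44.3%, followed by mt-Cytb with 16.1%, mt-Nd5 with 11.5% and mt-Nd1 with 11.2%. mt-Cytb encodes cytochrome b, the only mitochondrial subunit of complex III, and the mt-Nd genes encode the membrane arm of complex I.

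**Figure D1:**
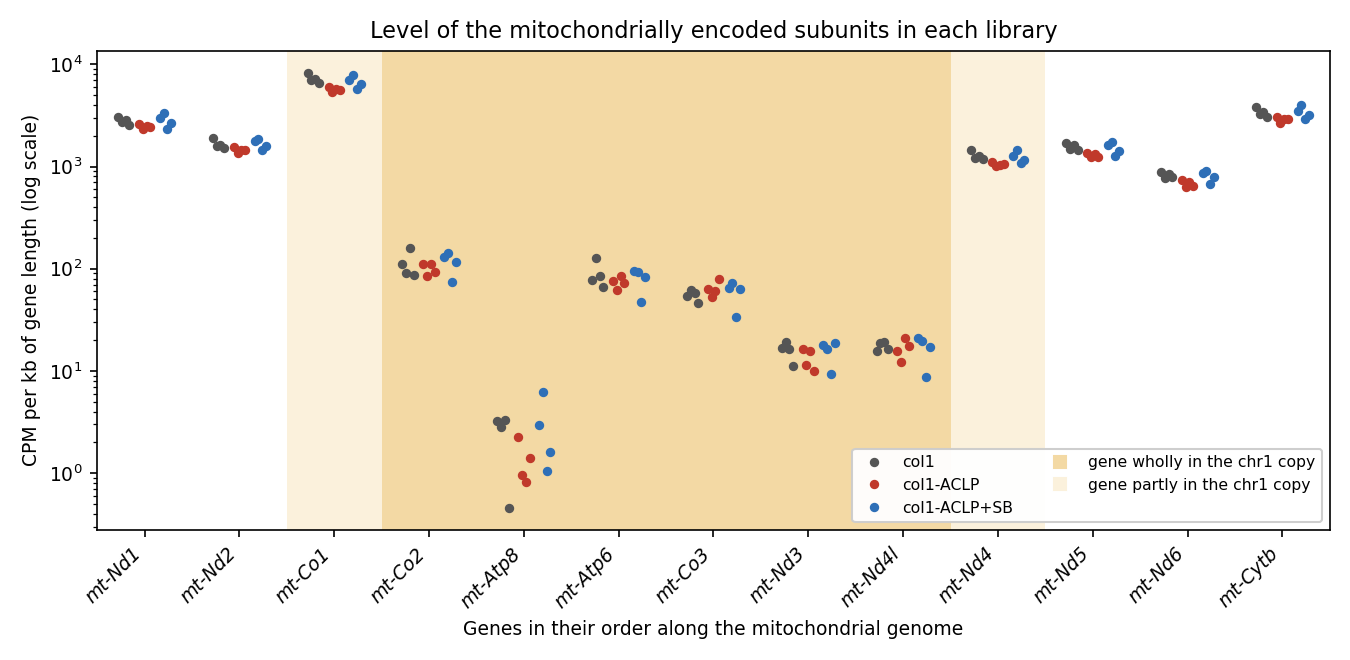
Level of each mitochondrially encoded subunit in CPM per kb of gene length (log axis), 1 point per library coloured by group, with shading behind genes wholly (dark) or partly (light) repeated on chromosome 1. The 6 genes wholly repeated on chromosome 1 lie between 2.25 and 109 CPM per kb on average over the 12 libraries, and the other 7 between 769 and 6568.

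The chromosome 1 stretch carries 7 annotated pseudogenes with counts of their own. Gm28661, which matches mt-Co2, had 68.4 ± 28.4 CPM (SD, n = 4) in col1, beside 76.6 ± 23.2 CPM for mt-Co2. Gm10925, which matches mt-Atp6, had 67.6 ± 8.93 CPM in col1, beside 60.5 ± 17.8 CPM for mt-Atp6. Gm29216, which matches the end of mt-Co1, had 45.2 ± 6.28 CPM, beside 11211 ± 1166 CPM for mt-Co1. Gm28438, which matches mt-Nd3, had 29.0 ± 3.64 CPM, above the 5.49 ± 1.15 CPM of mt-Nd3. Of these, Gm28661, Gm10925 and Gm28438 match genes wholly inside the stretch and were at or above their mitochondrial partner in col1 or close below it. Gm29216 was far smaller than its partner mt-Co1. The levels of Gm28437 and Gm10222, which match mt-Co3 and mt-Nd4l, are not given here, and none of the 7 is matched to mt-Atp8. Gm28438 fell in col1-ACLP, by 0.41 on the log2 scale (edgeR adjusted p = 0.0047), and the other 6 pseudogenes did not pass the test. The part that read assignment has in these levels was not tested. For this reason the values of the 6 members inside the stretch are given apart from those of the other 7.

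The first comparison asked which subunits differ in cells on ACLP-bearing collagen. With ACLP, 6 of the 13 mitochondrial members fell (edgeR quasi-likelihood p under 0.05 after Benjamini-Hochberg adjustment over all 16465 genes) and none rose, also at an unadjusted p of 0.05 or by DESeq2, while of 82 nuclear members tested 2 fell and 4 rose. Over all genes tested, 8.41% were called lower and 9.52% higher in this comparison. The share of mitochondrial members called lower was thus above the background in that direction, and the nuclear shares lay below it in both directions. The 6 lower mitochondrial members were mt-Co1, mt-Nd5, mt-Nd4, mt-Nd6, mt-Cytb and mt-Nd2, all among the 7 that are not wholly inside the chromosome 1 stretch, with mt-Nd4 and mt-Co1 partly inside it.

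mt-Co1 had 12841, 10929, 11003 and 10072 CPM in the 4 col1 libraries and 9239, 8305, 8822 and 8648 CPM in the 4 col1-ACLP libraries. Every col1-ACLP library lay below every col1 library. The log2 fold change was -0.36 (SE 0.07) with an adjusted p of 3.1e-04 by edgeR.

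mt-Nd5, a proton-pumping subunit at the far end of the complex I membrane arm, had 3097, 2702, 2930 and 2654 CPM in col1 and 2450, 2267, 2408 and 2267 CPM in col1-ACLP. The groups did not overlap, and the log2 fold change was -0.28 (SE 0.07, edgeR adjusted p = 0.0031). mt-Nd4, another proton-pumping subunit, had 1977, 1686, 1730 and 1627 CPM in col1 and 1525, 1384, 1440 and 1456 CPM in col1-ACLP. The groups did not overlap here either, with a log2 fold change of -0.27 (SE 0.07, edgeR adjusted p = 0.0033).

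mt-Nd6, the only subunit encoded on the other strand, had 463, 402, 434 and 406 CPM in col1 and 381, 330, 364 and 336 CPM in col1-ACLP. Again all 4 treated libraries lay below the 4 controls, with a log2 fold change of -0.27 (SE 0.07, edgeR adjusted p = 0.0051). The end of mt-Nd6 overlaps the end of mt-Nd5 on the opposite strand, at chrM:13552-13565. The strand setting of the counting is not given, so reads of the overlap cannot be assigned to 1 of them. Over the rest of mt-Nd6, reads of the opposite strand likewise cannot be told from its own.

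mt-Cytb ranged from 3503 to 4328 CPM in col1 and from 3068 to 3529 in col1-ACLP, so that the highest treated library lay just above the lowest control. Its log2 fold change was -0.22 (SE 0.07, edgeR adjusted p = 0.028). mt-Nd2 ranged from 1569 to 1957 CPM in col1 and from 1409 to 1604 in col1-ACLP, with a log2 fold change of -0.19 (SE 0.06, edgeR adjusted p = 0.040). Both genes overlapped between the groups by 1 library. By DESeq2 neither passed, with an adjusted p of 0.12 for each, and neither passed in edgeR without col1 replicate 1 (0.14 for mt-Cytb and 0.21 for mt-Nd2), col1 replicate 3, or col1-ACLP replicate 2 or 3. mt-Nd2 also lost its call without col1-ACLP replicate 4 and with the gene length offset (edgeR adjusted p = 0.053). Without col1 replicate 1 the log2 fold change was -0.12 for mt-Nd2 and -0.16 for mt-Cytb. mt-Nd1, which sits where the membrane arm meets the arm that binds NADH, had 2663 ± 194 CPM in col1 and 2358 ± 134 in col1-ACLP (SD, n = 4 each) and did not pass the threshold, at a log2 fold change of -0.18 (SE 0.07, edgeR adjusted p = 0.087). mt-Nd1 did pass without col1-ACLP+SB replicate 2 or 3 (adjusted p of 0.032 and 0.031), with only the 2 groups compared (0.010), with library size alone (0.023) and without a filter (0.0023). Of the 13 mitochondrial members, 4 had all col1-ACLP libraries below all col1 libraries, against 10.3% of all genes tested.

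The 6 members wholly inside the chromosome 1 stretch were measured less precisely and none passed the edgeR test or DESeq2, with 0 of them below an unadjusted p of 0.05. Without a filter on low counts mt-Atp6 was called lower (edgeR adjusted p = 0.0025). Its col1 libraries had 53.1, 86.1, 57.5 and 45.5 CPM, the highest being col1 replicate 2. In the filtered fit without that library its log2 fold change was -0.06 (SE 0.15, edgeR adjusted p = 0.86). mt-Co2 had 76.6 ± 23.2 CPM in col1 and 68.4 ± 8.85 in col1-ACLP, and mt-Atp6, part of the proton channel of ATP synthase, had 60.5 ± 17.8 and 49.9 ± 6.32. mt-Co3 had 43.4 ± 5.31 CPM in col1 and 50.1 ± 8.56 in col1-ACLP, the only mitochondrial member with a fold change above 0, at 0.20 (SE 0.15) on the log2 scale. mt-Nd3 and mt-Nd4l lay between 3.51 and 6.65 CPM in every library of these 2 groups. mt-Atp8 was at 0.0930 to 0.668 CPM, and its log2 fold change of -0.84 had an SE of 0.73. The SE of the fold change was 0.15 or more for each of the 6, against 0.07 or less for each of the other 7. A change as large as that of mt-Co1 is less than 2 SE for mt-Nd3, mt-Nd4l and mt-Atp8. With an SE of this size, the lack of a call for any of the 6 does not show that it was unchanged. The source of the larger SE was not tested.

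The 2 ribosomal RNAs of the mitochondrial genome, which are not members, were also lower in col1-ACLP. mt-Rnr2, the large ribosomal RNA, had 985 ± 123 CPM in col1 and 753 ± 54.7 in col1-ACLP, which is -0.39 on the log2 scale (SE 0.07, edgeR adjusted p = 4.1e-04). mt-Rnr1, the small one, was at 351 ± 31.3 and 214 ± 29.6 CPM, which is -0.71 (SE 0.09, edgeR adjusted p = 7.75e-07). Libraries were made after poly(A) enrichment, so these values are not total rRNA. In bulk samples, fewer mitochondrial genomes per cell, less RNA per genome and a different capture of these RNAs cannot be told apart.

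**Figure D2:**
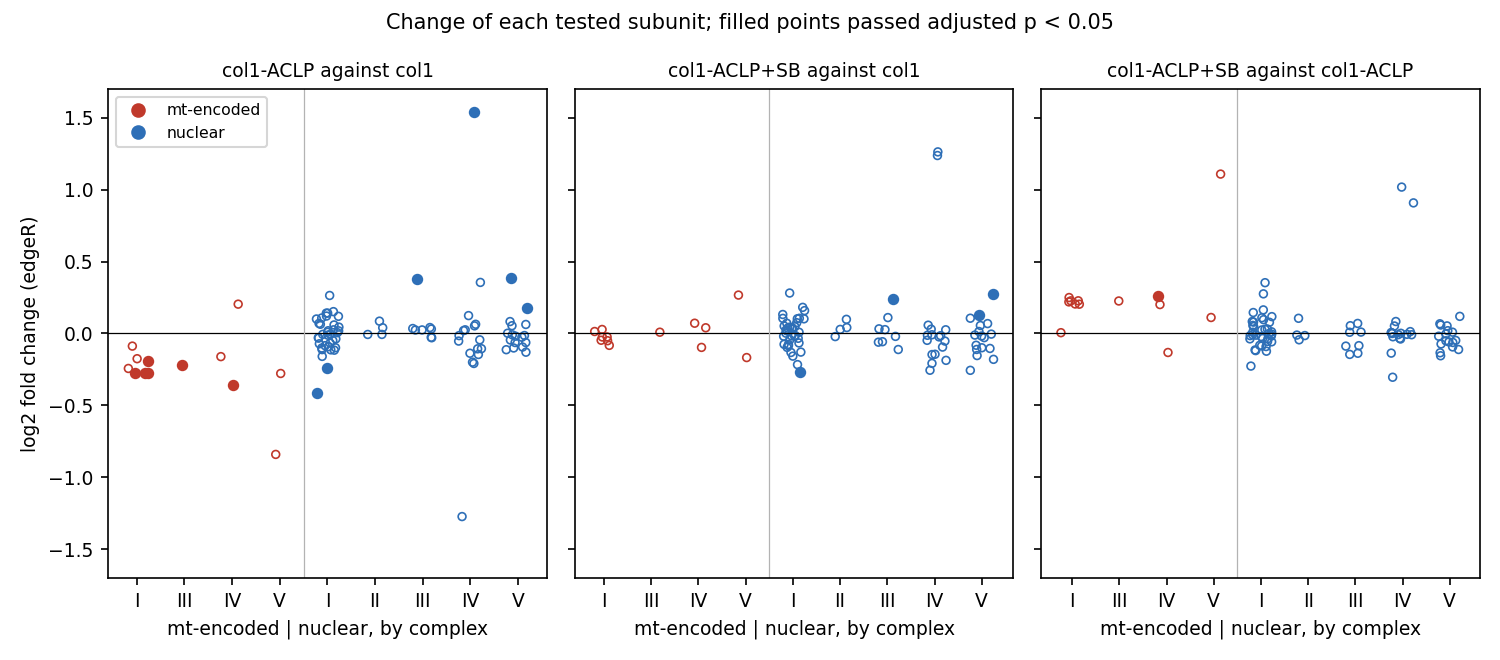
Log2 fold change of each of the 95 tested subunits (edgeR) in the 3 comparisons, grouped by complex, with mitochondrially encoded subunits in red, nuclear ones in blue and filled points for an adjusted p under 0.05. The left panel has 6 filled mitochondrial points, all below 0, the middle panel has filled nuclear points only, and the right panel has 1 filled point, mt-Co1, above 0.

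The nuclear subunits lay close to 0. In the ACLP comparison their median fold change was -0.01 on the log2 scale, beside -0.01 over all genes tested, and 38 estimates lay above 0 and 44 below. The median of the 13 mitochondrial members was -0.24. By complex, the nuclear medians were -0.01 for complex I (36 tested), 0.02 for complex II (4), 0.03 for complex III (8), -0.04 for complex IV (17) and -0.02 for complex V (17).

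Of 36 nuclear complex I genes tested, 2 fell and none rose by edgeR, where 8.41% of all genes tested fell and 9.52% rose. At an unadjusted p of 0.05, 1 was higher and 2 were lower, beside 2360 and 2301 of all 16465 genes tested. Ndufa7 (chr17:34043546-34057291, plus strand), an accessory subunit of complex I, had 85.6, 99.3, 97.4 and 93.1 CPM in col1 and 82.3, 81.8, 81.9 and 71.4 CPM in col1-ACLP. The groups did not overlap, although the highest treated and lowest control libraries were close, and the log2 fold change was -0.24 (SE 0.07, edgeR adjusted p = 0.013). Without col1-ACLP replicate 4, the lowest library, the adjusted p was 0.065. Per length the nuclear complex I genes had a median of 21.5 CPM per kb, and the lowest tested was Ndufb2 at 1.63.

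Complex II, or succinate dehydrogenase, also works in the TCA cycle and has no mitochondrial gene. None of its genes passed edgeR's test or DESeq2 in any of the 3 comparisons, and 0 of 4 reached an unadjusted p of 0.05. Sdha, the flavoprotein, was at 205 ± 10.9 CPM on collagen, 211 ± 2.72 with ACLP and 209 ± 8.35 with ACLP and SB431542. Sdhb had 53.4 ± 2.46, 56.6 ± 2.95 and 54.9 ± 2.15 CPM, Sdhc 85.8 ± 6.70, 85.4 ± 5.05 and 84.6 ± 3.99, and Sdhd 62.1 ± 1.79, 61.8 ± 1.66 and 66.5 ± 4.72. The groups overlapped for each of these genes. Sdhb carries the iron-sulfur clusters, and Sdhc and Sdhd anchor the enzyme in the membrane.

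In complex III, 1 of 8 nuclear genes rose in col1-ACLP, where 9.52% of all genes tested rose. Uqcrq (chr11:53318749-53321658, minus strand), a small subunit at the quinone-binding side of the complex, had 31.2, 35.6, 33.1 and 35.1 CPM in col1 and 41.1, 48.3, 43.2 and 42.9 CPM in col1-ACLP. The groups did not overlap, and the log2 fold change was 0.38 (SE 0.07, edgeR adjusted p = 3.8e-04). Among the other complex III genes, Uqcrc1, a core protein, had 88.3 ± 2.92 CPM in col1 and 86.6 ± 1.93 in col1-ACLP. Per length, Uqcr11 was the highest of the 8 at 74.9 CPM per kb and Uqcrc1 the lowest at 21.4.

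Of 17 nuclear complex V genes tested, 2 rose, a share near the 9.52% of all genes tested. Atp5g1 (chr11:95959678-95966496, minus strand) encodes a c subunit of the rotor ring and had 52.3, 48.8, 57.3 and 47.8 CPM in col1 and 67.0, 71.3, 63.7 and 66.9 CPM in col1-ACLP. The groups did not overlap, with a log2 fold change of 0.38 (SE 0.06, edgeR adjusted p = 8.2e-05). A processed pseudogene on the same chromosome, Gm10039, repeats 85.8% of the 612-base canonical Atp5g1 transcript at 99.8% identity. It had 5117 counts over the 12 libraries against 25469 for Atp5g1, and it also rose, by 0.33 on the log2 scale (SE 0.11, edgeR adjusted p = 0.040). The split of reads between these 2 loci is uncertain. Atp5g2 and Atp5g3 encode the same mature protein from other genes, and neither passed the test.

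Atp5b (chr10:127919142-127926260, plus strand) encodes the catalytic β subunit and was the nuclear member with the highest level per length, at 203 CPM per kb over the 12 libraries. It had 758, 816, 817 and 810 CPM in col1 and 911, 910, 894 and 902 CPM in col1-ACLP. The groups did not overlap, and the log2 fold change of 0.18 (SE 0.04, edgeR adjusted p = 0.0013) was the smallest in size among the members called in this comparison. No second locus of at least 200 aligned bases at 95% identity was found for Atp5b, Ndufa7, Uqcrq or Cox6a2.

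The remaining nuclear gene that rose was Cox6a2 (chr7:127804607-127805559, minus strand), the heart and muscle form of a complex IV subunit, at a very low level. It had 0.966, 0.318, 0.486 and 0.744 CPM in col1 and 1.37, 2.21, 1.94 and 1.84 CPM in col1-ACLP. Each treated library lay above each control, with a log2 fold change of 1.54 (SE 0.48, edgeR adjusted p = 0.025). It was the only member called with a fold change beyond 0.58 on the log2 scale, the limit the study applied, in any of the 3 comparisons. Over all genes tested, 4.97% passed both limits in this comparison. Its call was lost without col1 replicate 2 or 3 or col1-ACLP replicate 2 or 3. Without col1 replicate 2, the library that stood apart, Cox6a2 had an adjusted p of 0.064 by edgeR, while the 6 mitochondrial genes and the other 5 nuclear genes stayed past the threshold. Tnnt2, a muscle troponin that had been listed as a muscle marker, rose from 0.274 ± 0.101 to 1.52 ± 0.310 CPM, while Myod1 and Myog were at 0. Cox6a2 shares 70 exonic bases with Itgad on the other strand. The part of other cells in the Cox6a2 value was not tested.

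**Figure D3:**
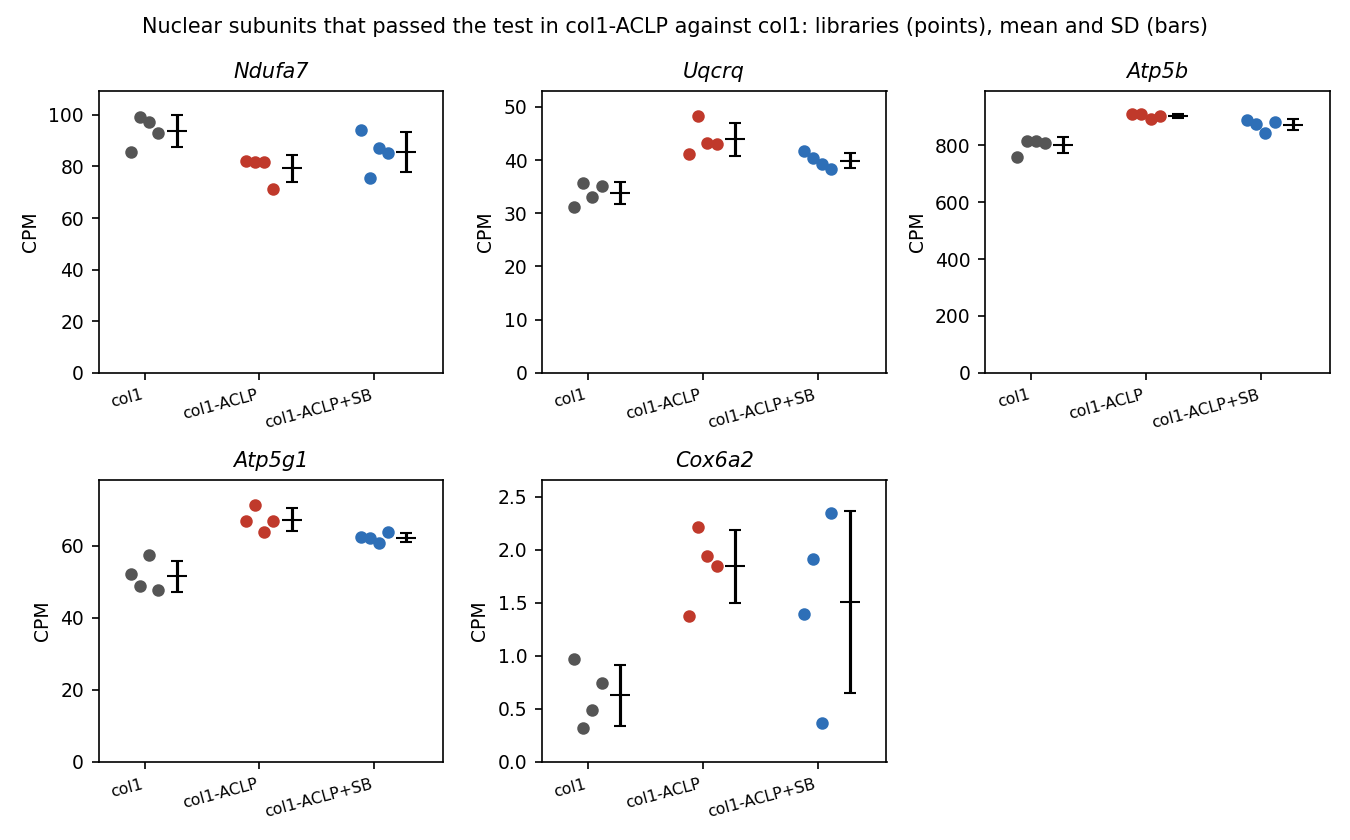
CPM of 5 nuclear subunits that passed the test in col1-ACLP against col1, 1 point per library with the mean and SD (n = 4) beside each group. Ndufa7 lies lower and Uqcrq, Atp5b, Atp5g1 and Cox6a2 lie higher in each col1-ACLP library than in any col1 library.

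Several complex IV subunits exist as a ubiquitous form and a tissue-restricted form, and the ubiquitous forms had the higher level here. Per length and over all 3 groups, Cox6a1 was the highest nuclear complex IV gene at 176 CPM per kb and Cox4i2, the lung form of subunit 4, the lowest one tested at 0.484. Over the 12 libraries Cox4i1 had 126 CPM per kb, and Cox7a2 had 38.5 against 0.657 for Cox7a1, the muscle form. Cox8a had 148 CPM per kb, against 0.0275 for the muscle form Cox8b. Cox8c and Cox7b2 were at 0 in all 12 libraries, and Cox6b2, the testis form of Cox6b1, was at 0.161 CPM or less on average in each group. None of Cox4i1, Cox6a1, Cox6b1, Cox7a2, Cox7a2l, Cox7b, Cox8a or Ndufa4 passed the test in any comparison, with log2 fold changes from -0.15 to 0.12. Ndufa4l2, which takes the place of Ndufa4 when oxygen is low, was at 0.581 ± 0.294 CPM in col1, 0.745 ± 0.289 with ACLP and 1.40 ± 0.722 with ACLP and SB431542, and did not pass either. Of its 1148 exonic bases, 727 (63.3%) are shared with Shmt2 on the other strand, and without strand information reads there cannot be assigned to Ndufa4l2, as with the 514 bases (16.3%) that Cox4i1 shares with Emc8.

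The second comparison set cells on ACLP with SB431542 against cells on collagen alone. By edgeR no mitochondrial member passed the test, 0 of the 13 reached an unadjusted p of 0.05 and DESeq2 called 0. Of the 2 mitochondrial ribosomal RNAs, mt-Rnr1 was lower than in col1 (258 ± 33.0 against 351 ± 31.3 CPM, -0.45 on the log2 scale, edgeR adjusted p = 7.7e-04), while mt-Rnr2 was at -0.19 and did not pass (adjusted p = 0.13). Of 82 nuclear members, 3 were higher and 1 was lower, where 4.6% and 4.54% of all genes tested were called in these directions. None of the 4 was beyond 0.58, which 2.28% of all genes tested passed. The 3 that were higher, Atp5g1, Atp5b and Uqcrq, were also called in col1-ACLP against col1, and both comparisons used the same col1 libraries.

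Atp5g1 had 62.3, 62.1, 60.7 and 63.7 CPM in col1-ACLP+SB, all above col1, with a log2 fold change of 0.27 (SE 0.06, edgeR adjusted p = 0.0060). Its mean with SB431542 lay between those of col1 and col1-ACLP.

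Uqcrq had 41.6, 40.3, 39.3 and 38.3 CPM in col1-ACLP+SB, with a log2 fold change over col1 of 0.24 (SE 0.07, edgeR adjusted p = 0.035). Atp5b had 889, 875, 845 and 882 CPM, which is 0.13 on the log2 scale (SE 0.04, edgeR adjusted p = 0.037). All 4 libraries lay above col1 for both genes, but these calls were near the threshold. Without col1 replicate 1, col1 replicate 3 or col1-ACLP+SB replicate 1, Atp5g1 kept its call and Uqcrq and Atp5b did not. Over 21 alternative fits, Atp5g1 was called in all, Uqcrq lost its call in 8 and Atp5b in 10. Both lost it with library size alone, without a filter and with only the 2 groups compared, and Atp5b also with the gene length offset.

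The mitochondrial members in col1-ACLP+SB spread widely. mt-Co1 had 10893, 12160, 8872 and 9994 CPM, so that replicates 1 and 2 lay within the col1 range of 10072 to 12841, replicate 4 just below it and replicate 3 within the col1-ACLP range. mt-Cytb had 4025, 4573, 3302 and 3670 CPM in the same order, and mt-Nd5 2931, 3178, 2322 and 2559 CPM. In all 3 genes col1-ACLP+SB replicate 2 was the highest and replicate 3 the lowest of the group. Replicate 3 was also the most deeply sequenced library, with 52201922 counts, against at most 42543707 in the others. The part of depth in these values was not tested. The median log2 fold change of the 13 members against col1 was -0.02.

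The third comparison, col1-ACLP+SB against col1-ACLP, tested directly whether the inhibitor group differed from the ACLP group. Only mt-Co1 was called, at 10480 ± 1392 CPM against 8753 ± 388 (SD, n = 4 each) and a log2 fold change of 0.26 (SE 0.07, edgeR adjusted p = 0.049). Over all genes tested 0.571% were called higher and 0.905% lower in this comparison, and 0.128% passed the limit of 0.58. The 2 groups overlapped for mt-Co1, since replicate 3 with SB431542 lay below the highest col1-ACLP library. All 7 members not wholly in the chromosome 1 stretch had estimates from 0.20 to 0.26 on the log2 scale and an unadjusted p under 0.05, the others with adjusted p values from 0.070 for mt-Nd6 to 0.16 for mt-Nd1.

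The call of mt-Co1 and the count of calls depended on the method and on single libraries. In 13 of 21 alternative fits mt-Co1 lost its call. Among these were DESeq2 (adjusted p = 0.14), RLE factors, a mean of at least 10 counts and the gene length offset. Without col1-ACLP+SB replicate 3, 7 mitochondrial members were called higher, and without any other library of these 2 groups the count was 0. Without col1 replicate 2 or replicate 3, which are not in this contrast, the count was also 0. No nuclear member was called by edgeR, 3 had an unadjusted p under 0.05, and DESeq2 called none of them either.

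Summed levels gave the balance between the 2 genomes in each library. The 13 mitochondrial members summed to 27749, 23933, 24625 and 22427 CPM in col1, to 21436, 19117, 20501 and 20053 CPM in col1-ACLP and to 24961, 27721, 20200 and 22631 CPM in col1-ACLP+SB. All col1-ACLP libraries lay below all col1 libraries, and the col1-ACLP+SB libraries overlapped both groups. The means were 24684 ± 2240, 20277 ± 964 and 23878 ± 3216 CPM (SD, n = 4 each).

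The 88 nuclear members summed to 5513 ± 204 CPM on collagen, 5551 ± 213 with ACLP and 5527 ± 174 with ACLP and SB431542, a difference smaller than the spread within any group. The ratio of summed mitochondrial to summed nuclear counts was 4.49 ± 0.516, 3.66 ± 0.213 and 4.32 ± 0.590 in the same order. The highest col1-ACLP library, at 3.79, was below the lowest col1 library, at 4.11. On the log2 scale the difference of col1-ACLP from col1 was -0.29, beside a pooled SD of 0.13 within these groups. No test was made of these sums, since they combine members whose own tests are given above. The difference was -0.33 without col1 replicate 2 and -0.22 without col1 replicate 1, the library with the highest ratio. It was -0.29 when only the 7 members not wholly in the chromosome 1 stretch were summed, and also when the counts of the 7 pseudogenes were added, both chosen after seeing the data.

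**Figure D4:**
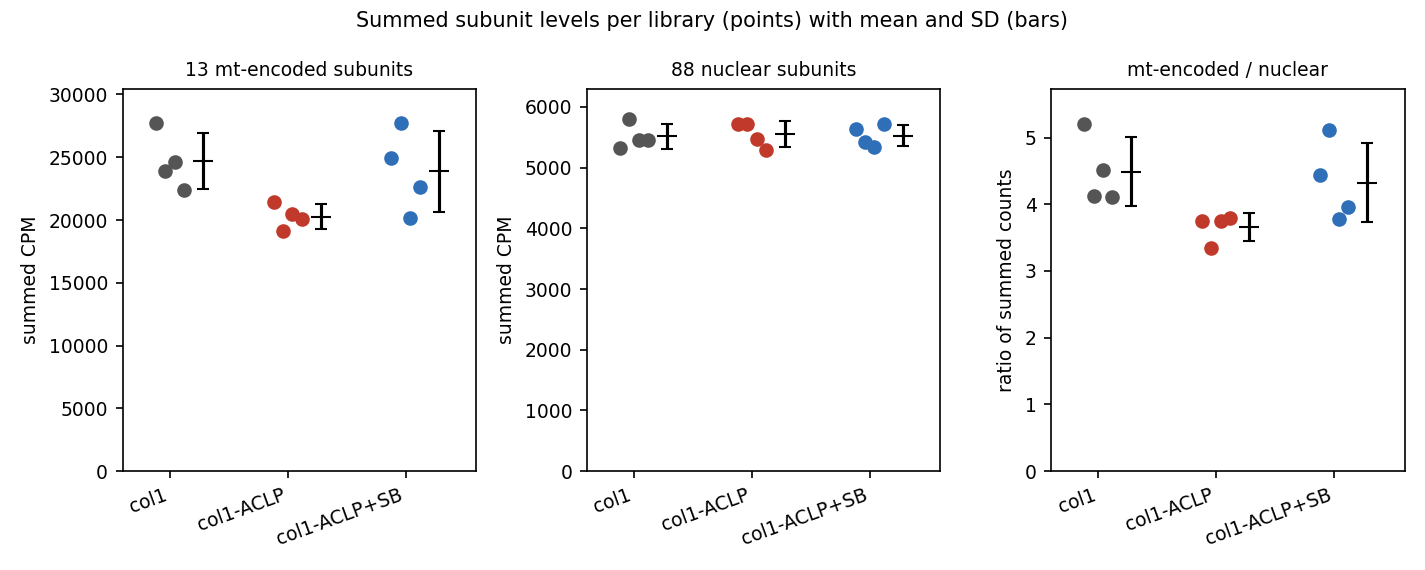
Summed CPM of the 13 mitochondrially encoded and 88 nuclear subunits, and the ratio of their summed counts, 1 point per library with the mean and SD (n = 4) beside each group. The mitochondrial sum is 22427 to 27749 CPM in col1 and 19117 to 21436 in col1-ACLP, while the nuclear sum stays between 5290 and 5803 CPM in all 12 libraries.

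Other genes of the mitochondrial system are given by the lists that were set beside the members. Of 52 tested regulators and components of mitochondrial transcription, RNA processing and translation, 3 rose and 2 fell with ACLP, where 9.52% of all genes tested rose and 8.41% fell. At an unadjusted p under 0.05 there were 9 higher and 2 lower, DESeq2 called 5 and 2, and the median was 0.03 on the log2 scale. Pprc1, a coactivator related to PGC-1α, rose from 58.9 ± 4.37 to 74.0 ± 7.19 CPM, Tfb1m, which methylates the small mitochondrial ribosomal RNA, from 4.79 ± 0.543 to 7.03 ± 0.907, and Tbrg4, an RNA-binding protein of the FASTK family that acts on mitochondrial mRNAs, from 31.1 ± 2.90 to 38.7 ± 3.81. Esrra, a nuclear receptor that drives many nuclear subunit genes, fell from a mean of 34.3 to 27.4 CPM, or -0.33 on the log2 scale (SE 0.09, edgeR adjusted p = 0.0105). Mgme1, a mitochondrial DNA exonuclease, fell from 15.7 ± 2.74 to 10.9 ± 1.64.

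The core factors that transcribe the mitochondrial genome did not pass the test in any comparison. Polrmt, the mitochondrial RNA polymerase, had 47.2 CPM on average in col1 and 46.1 in col1-ACLP, Tfam, which packages and activates the genome, 36.1 and 37.2, and Tfb2m, the initiation factor, 20.6 and 24.2. Nrf1 and Gabpa, which bind the promoters of many nuclear subunit genes, did not pass either, at -0.18 (SE 0.09) and 0.10 (SE 0.07) on the log2 scale. Ppargc1b was under 1 CPM on average in all groups, and Ppargc1a, which encodes PGC-1α, did not pass the filter on low counts. In col1-ACLP+SB against col1, Tbrg4 and Tsfm, a mitochondrial elongation factor, rose, with log2 fold changes of 0.29 (SE 0.08) and 0.40 (SE 0.10). In col1-ACLP+SB against col1-ACLP none of the 52 passed the edgeR test or DESeq2, and 1 had an unadjusted p under 0.05.

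Of 55 assembly factors of the complexes tested, 1 rose and 1 fell in col1-ACLP by edgeR and also by DESeq2, beside the same 9.52% and 8.41% of all genes. At an unadjusted p under 0.05 there were 3 higher and 4 lower. Higd1a, a small membrane protein that associates with complex IV and responds to low oxygen, rose from 14.2 ± 1.86 to 28.2 ± 2.21 CPM, or 0.99 on the log2 scale (SE 0.10, edgeR adjusted p = 3.1e-08). It was 32.5 ± 2.61 CPM in col1-ACLP+SB. Surf1, needed to build complex IV, fell from 33.5 ± 3.30 to 27.0 ± 0.719 CPM. Among the 73 nuclear members with a mean of at least 10 CPM, every estimate with ACLP was smaller in size than that of Higd1a. Of 20 electron carriers and coenzyme Q genes, 1 rose and 3 fell in col1-ACLP, with 2 higher and 3 lower at an unadjusted p under 0.05 and also by DESeq2. Coq10b rose, and Coq8a, Etfa and Gpd2 fell, with log2 fold changes between -0.43 and 0.45. Of 18 TCA cycle genes, 3 rose and 2 fell, with 6 higher and 2 lower at an unadjusted p under 0.05 and 5 higher and 2 lower by DESeq2, beside 9.52% and 8.41% of all genes. The largest changes by edgeR were those of Idh2, which makes mitochondrial NADPH and fell from 151 ± 7.13 to 111 ± 9.48 CPM, and Mdh2, which rose from 110 ± 2.83 to 135 ± 8.03.

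Ribosomal protein genes were set beside the members for comparison. Of 77 mitochondrial ribosomal protein genes tested by edgeR, 0 rose and 2 fell in col1-ACLP, below the 9.52% and 8.41% of all genes tested, with 5 higher and 6 lower at an unadjusted p of 0.05 and 1 higher and 3 lower by DESeq2. The 2 were Mrpl4 at -0.28 and Mrps6 at -0.27 on the log2 scale. Of 82 cytosolic ones edgeR called 0 higher and 1 lower, Rps28, with 0 and 5 at an unadjusted p of 0.05 and 0 and 2 by DESeq2. Their medians were 0.05 and -0.05. The median of the mitochondrially encoded members was -0.24.

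Promoter sequence was examined for the nuclear members, with 69 of 88 matched in RefSeq (GRCm38.p6) over 250 bases before to 50 bases after the start. Motif letters were searched on both strands. GCGCATGCG, the NRF1 motif, was in 8 of 69 members (11.6%), against 3.90% of 10756 other tested genes and 1.95% of all 27025 promoters. AAGATGGCG, the YY1 motif, was in 7 members (10.1%), against 3.35% and 1.64%. CCGGAAG, the ETS motif that GABPA binds, was in 17 (24.6%), against 19.4% and 9.93%, and TCAAGGTCA, the ERR motif, was in 2 (2.90%), against 0.298% and 0.466%. The NRF1 letters were found in Cox6a1, Uqcrc1, Uqcr11, Ndufa8, Ndufa11, Atp5g2, Atp5k and Atp5l, none of which passed the test in any comparison. Among nuclear members called in col1-ACLP, Atp5b, Atp5g1 and Ndufa7 had an entry, and these windows held none of the 4 motifs. A match is only a match of letters, and its absence says nothing of the factor.

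Counts of nuclear members can also be shared with pseudogenes. Of the 88 nuclear members, 30 had at least 1 other locus with 200 or more aligned bases at 95% identity, and for 7 the best such locus covered 80% or more of the transcript. Cox7a2l had 47088 counts over the 12 libraries and its pseudogene Gm6969 had 21862. Cox5b had 16776 counts and Cox5b-ps, which repeats 55.6% of its transcript at 99.2% identity, 4227. Levels of these members are therefore less certain than those of Uqcrq or Atp5b, for which no such locus was found.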

How the data were processed

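The authors sequenced poly(A) RNA as paired reads and mapped them with HISAT2 to GRCm39 by the study's methods, while the submitters' processing notes list mm10. Of the 101 members, 94 lie within 5000 bases of their GENCODE M39 ends in GRCm39. The deposited table holds raw counts per gene and a gene length. The counting tool, the strand setting and the handling of reads with several matches are not given in the sources used here. The length is that of the deposited table and may cover more exons than the main transcript, which lowers levels per length.

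From these counts, edgeR 4.0.16 (R 4.3.3) gave TMM factors, kept 16465 genes by filterByExpr and ran the quasi-likelihood test on all 12 libraries with 1 coefficient per group and no covariate. Adjustment was by Benjamini-Hochberg over all genes tested, with a threshold of 0.05. CPM are TMM-scaled. The test was checked on simulated data. Replicate libraries differed by far more than sampling noise (chi-square per degree of freedom 7.14 to 18.3), so none was taken as a repeat sequencing of another. All 12 libraries were kept, with col1 replicate 2 among them. The study calls them biological replicates, but the labels do not say how cultures were separated.

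Copies of the mitochondrial genome and of transcripts were found with BLAST in GRCm39, at identities of at least 90% over 300 bases and 95% over 200 bases. The rule for members reads gene names only, but the group of genes, like the gene lists, was proposed with earlier results of these data known. Named genes are all mitochondrial members, up to 3 called nuclear members per complex and comparison, members called beyond 0.58, the complex IV and Ndufa4 paralogues, all Sdh genes, the highest and lowest member per complex by level per length, and of each list up to 3 called genes per comparison and 8 regulators. Atp5g2, Atp5g3, Cox5b, Cox5b-ps, Etfa and the members named for a motif or a copy were chosen after their values were seen. One called nuclear member stays in the counts and is not reported here by name. Alternatives were RLE factors, library size alone, factors without mitochondrial genes, no filter, a mean of at least 10 counts, DESeq2 1.42.0, a replicate block, only the 2 groups compared, a gene length offset, the 0.58 limit and leaving out each library.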

Additional observations from a re-analysis of the deposited data

Results flagged for a closer look

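Dixon's test at the 95% level was applied to 66 groups of 4 libraries, over the mitochondrial members, the nuclear members called in any comparison and the summed levels, and it marked 4 groups. Chance marks about 1 in 20 groups, and 4 of 66 is close to that share. For mt-Atp8, col1 replicate 4 was low at 0.0930 CPM, against 0.583 to 0.668 in the other 3 libraries. For Ndufa7, col1-ACLP replicate 4 was low at 71.4 CPM, against 81.8 to 82.3. For Atp5b, col1 replicate 1 was low at 758 CPM, against 810 to 817. The log2 ratio of summed mitochondrial to summed nuclear counts was lowest in col1-ACLP replicate 2, at 1.74, against 1.90 to 1.92 in the other col1-ACLP libraries.

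The direct test of col1-ACLP+SB against col1-ACLP marked mt-Co1, whose log2 fold change was 0.26 with an adjusted p of 0.049 by edgeR. It was higher with SB431542 in 3 of 4 libraries than in any col1-ACLP library. The call was lost in 13 of 21 alternative fits.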

How the results depend on the processing

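The 6 lower mitochondrial members in col1-ACLP against col1 became 4 with DESeq2, 5 with the gene length offset, 7 with library size alone or only the 2 groups compared, 8 without a filter and 4 to 7 when a library was left out, and the 6 nuclear calls 5 to 7. With the limit of 0.58 the counts were 0 mitochondrial and 1 nuclear. In col1-ACLP+SB against col1 the mitochondrial count was 0 under every alternative run, and the 4 nuclear calls became 2 with library size alone, 2 without a filter, 2 with only the 2 groups compared, 0 beyond 0.58, and 2 to 4 when a library was left out. In col1-ACLP+SB against col1-ACLP the 1 mitochondrial call became 0 with RLE factors, 0 with a mean of at least 10 counts, 0 with the gene length offset, 0 beyond 0.58, 4 with library size alone and 7 without a filter, and ranged from 0 to 7 when a library was left out; the nuclear count was 0 throughout. DESeq2 also called 1 there, mt-Nd6 and not mt-Co1. The cause of these shifts was not tested. mt-Co1, mt-Nd4, mt-Nd5, mt-Nd6, Uqcrq, Atp5b and Atp5g1 kept their call in col1-ACLP against col1 under all 21 alternative fits. mt-Nd2 lost it in 7, mt-Cytb in 5, Cox6a2 in 4 and Ndufa7 in 1.

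The log2 ratio differences ranged from -0.33 to -0.22, from -0.14 to 0.017 and from 0.15 to 0.29 for the 3 comparisons when a library was left out, and the other ways of summing moved them by less than the pooled SD. No result changed direction where a call was made. With library size alone, 38.3% of genes called in col1-ACLP against col1 were higher, against 53.1% with TMM, and 59.0% against 38.7% in col1-ACLP+SB against col1-ACLP. In the last comparison 243 genes were called over all genes, 568 by DESeq2 and 428 without a filter, and 98 to 282 when a library was left out. Deviations of libraries with the same replicate number correlated at -0.037 to 0.036, which shows no pairing by number but does not exclude it. With the replicate block, 6 mitochondrial and 6 nuclear members were called in col1-ACLP against col1, 0 and 3 in col1-ACLP+SB against col1, where Atp5b lost its call (adjusted p = 0.065), and 1 and 0 in col1-ACLP+SB against col1-ACLP. Low counts limit mt-Atp8, Cox6a2 and the tissue-restricted paralogues.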
